A study of Caenorhabditis elegans with 2 samples.

Results

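The genes cdc-48.1 and cdc-48.2 of Caenorhabditis elegans encode near-redundant copies of the same AAA ATPase, and 2 of 19985 annotated protein-coding genes are described here. They were selected on the peak signals of these same lists, with cdc-48.1 known to carry a strong promoter peak and cdc-48.2 taken as its paralog, so the signals at both genes are a description and were not tested. A peak was assigned to a gene when its summit lay inside the gene or within 5 kb of it. By this rule cdc-48.1 held 1 of the 1627 peaks in the conservative list of the series and cdc-48.2 held 0. In the longer ranked list, which also holds weak peaks below the threshold, they held 22 and 25 of 105959 summits.

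The data are chromatin immunoprecipitation followed by sequencing (ChIP-seq) from whole L4 larvae aged 50 h, synchronised by starvation of L1 larvae after bleaching. There was 1 group of 2 biological replicates of strain OP351. All animals carried the transgene wgIs351, which holds nhr-42 fused to TY1, EGFP and 3xFLAG tags together with a functional unc-119 copy, in an unc-119(tm4063) mutant background. An anti-GFP antibody was used for the precipitation, and the question was where in the genome the tagged nuclear hormone receptor NHR-42 is found. The sources used here give neither the copy number of the transgene nor the tissues that express it. No precipitation from untagged animals was analysed here, so the values stand without a measured background. In whole animals, binding in few cells and weak binding in many cells cannot be told apart. The lists hold no read counts, so the depth is unknown.

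CDC-48, called p97 or VCP in mammals, forms a ring of identical subunits that uses ATP to pull ubiquitin-tagged proteins out of complexes, membranes and chromatin. With the UFD-1 and NPL-4 adaptors it delivers them to the proteasome, and it is needed for the removal of misfolded proteins from the endoplasmic reticulum and for the progress of DNA replication in embryos. In C. elegans either gene can be lost, whereas loss of both is lethal to embryos. NHR-42 belongs to the large nematode family of nuclear hormone receptors, transcription factors with a zinc finger DNA-binding domain.

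The sequence of the cdc-48.1 peak is shown because the contrast between the genes rests on it, beside the stretch at the same distance from the 5′ end of cdc-48.2, where no peak passed. Both are on build ce11 (WBcel235) and read 5′ to 3′ in the direction of the gene, from 267 to 67 bp upstream of its 5′ end. The peak lies at chrII:10563474-10563674, minus strand, and the cdc-48.2 stretch at chrII:8138229-8138429, plus strand. Capitals mark a word of 9 bases that is described with the other strong promoter peaks.
cdc-48.1: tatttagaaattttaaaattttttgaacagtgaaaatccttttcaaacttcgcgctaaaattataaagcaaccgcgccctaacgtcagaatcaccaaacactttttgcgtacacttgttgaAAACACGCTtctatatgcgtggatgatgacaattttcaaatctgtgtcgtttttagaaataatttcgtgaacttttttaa
cdc-48.2: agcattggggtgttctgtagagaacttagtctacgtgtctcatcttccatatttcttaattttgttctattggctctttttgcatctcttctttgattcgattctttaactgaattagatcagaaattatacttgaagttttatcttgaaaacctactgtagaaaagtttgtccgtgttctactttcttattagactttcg

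A single peak stood upstream of cdc-48.1 in every thresholded list, and no peak of cdc-48.2 passed the threshold in any list. The cdc-48.1 gene (WBGene00007352) lies on II from 10560036 to 10563407 on the minus strand, and its peak was 201 bp wide with a summit at 10563587, 180 bp upstream of the annotated 5′ end. The summit lies between genes, in a gap of 704 bp that separates cdc-48.1 from C06A1.6, an uncharacterised gene on the same strand. Many worm transcripts are trans-spliced, so an annotated 5′ end need not be the start of transcription.

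The signal value, which is the authors' measure of enrichment per peak with no stated unit, was 278.6 at cdc-48.1 in replicate 1 and 277.2 in replicate 2 (277.9 ± 1.02, SD, n = 2). The mean and SD take the scales of both replicate lists as alike, which could not be checked because the normalization of the signal is not stated. The series lists gave 557, which is 1.002 times the sum of both. Over the 434 conservative peaks that also overlapped a thresholded peak of each replicate, the ratio of replicate 1 to replicate 2 had a median of 1.05 and quartiles of 0.861 and 1.32, against 1.005 at cdc-48.1. No correction for depth was made in these ratios. In the same 434 peaks the series signal over the sum of both replicates had a median of 1.004 (quartiles 0.978 and 1.03). A series signal close to that sum was thus not particular to cdc-48.1. The score, a scaled irreproducible discovery rate capped at 1000, was 1000 in each list, a value held by 1050 of the conservative peaks.

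**Figure D1:**
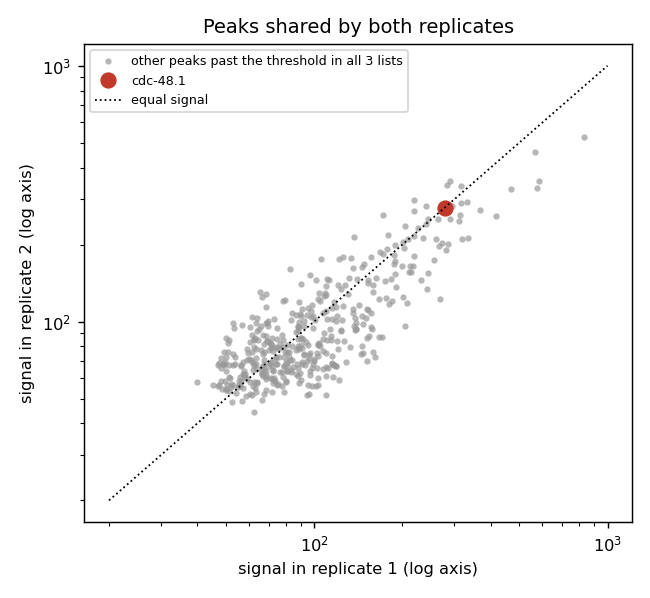
Signal in replicate 1 (x axis) against replicate 2 (y axis), both on log axes, for the 434 peaks past the threshold in the conservative list and in both replicate lists. The cdc-48.1 peak (red) lies on the line of equal signal at 278.6 and 277.2, near the upper right end of the cloud.

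The position of the peak also hardly moved between replicates. Its summit was at 10563587 in replicate 1 and 10563586 in replicate 2, a gap of 1 bp, whereas the median gap over the 434 shared peaks was 17 bp. A gap this small or smaller was found in 7.60% of them. Small gaps were usual among strong peaks, since the 17 shared peaks with a signal of at least that of cdc-48.1, itself included, had a median gap of 3 bp, and 5 of them had a gap of at most 1 bp. The peak was 175 bp wide in replicate 1 and 159 bp in replicate 2, and the narrower interval lay wholly inside the wider. The median width of conservative peaks was 300 bp, and 5.84% are as narrow as that at cdc-48.1 or narrower. Every summit below the threshold at both genes in the series ranked lists was also exactly 300 bp wide. Such a constant need not be a measured extent, so nothing is read from this share. The 17 peaks with a signal of at least its size had a median width of 247 bp.

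In strength the cdc-48.1 peak ranked 17th of 1627 conservative peaks, 21st of 875 in replicate 1 and 14th of 702 in replicate 2. Its signal was 5.76 times the conservative median of 96.7 and 41.5% of the highest signal, 1343. On II it ranked 3rd of 383, and among the 742 conservative peaks with a summit in a promoter window it ranked 8th. A promoter window covered 1000 bp before and 200 bp after each annotated 5′ end of a protein-coding gene. Promoter summits had a median position 229 bp upstream of the closest 5′ end (quartiles 459.5 and 91.2 bp upstream), and the distance of 180 bp lay between these quartiles.

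Of all protein-coding genes, 4.42% had a conservative summit in the promoter window, 4.86% in the other series list, 3.1% in replicate 1 and 2.11% in replicate 2. In each list cdc-48.1 was among them and cdc-48.2 was not, so 1 of 2 members was called throughout. The rule used these signals, and nothing is read from that share. By promoter signal cdc-48.1 ranked 10th of the 884 genes with a conservative summit, some of which share a peak, 14th of 619 in replicate 1 and 6th of 421 in replicate 2.

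At cdc-48.2 (WBGene00008053, II from 8138496 to 8141230, plus strand) all 25 ranked summits lay below the threshold. The strongest had a signal of 56.6 and a score of 466, where the thresholded list starts at 830, and its summit at 8138778 was inside exon 2, 282 bp downstream of the 5′ end. A summit was also found there in each replicate, at 8138781 with a signal of 25.2 in replicate 1 and at 8138778 with 29.2 in replicate 2. These values recurred at the same place but were weak, at the 83.2 and 87.5 percentiles of the ranked lists. Another summit of like signal, 55.2, lay at 8141341, past the 3′ end and inside ints-11, the gene of an Integrator subunit, and had the highest score at this gene, 475 in the conservative list and 500 in the other series list. A further one of 55.2 lay at 8135326 inside ctns-1, which encodes a lysosomal cystine transporter, 3170 bp upstream of cdc-48.2, with a signal of 39.3 in replicate 2 and 19.4 in replicate 1. Near the threshold itself, peaks of the conservative ranked list up to 20 score points above it had a median signal of 72.8. Those up to 20 points below it had 71.7. That ranked list holds 1693 peaks with a score of at least 830, not all of which are among the 1627 thresholded peaks.

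Upstream of cdc-48.2 the ranked list was close to its floor. The promoter window held summits with signals of 13.8 and 4.97, at 930 and 642 bp upstream, both at the lowest score of the list, 45. The higher of these values put cdc-48.2 at the 7.71 percentile of the 14797 genes with any ranked summit in the window, whose median was 33.6. This rank depends on the window, which ends 200 bp downstream of the 5′ end. The strongest summit of the gene, 56.6, lies outside it, at 282 bp downstream. Neither replicate had a ranked summit in that window. The gap upstream of cdc-48.2 is 1577 bp and is shared with ctns-1, which is transcribed in the opposite direction, so the weak summits lie between the 5′ ends of a divergent pair. At ctns-1 the strongest promoter value was the same 13.8.

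**Figure D2:**
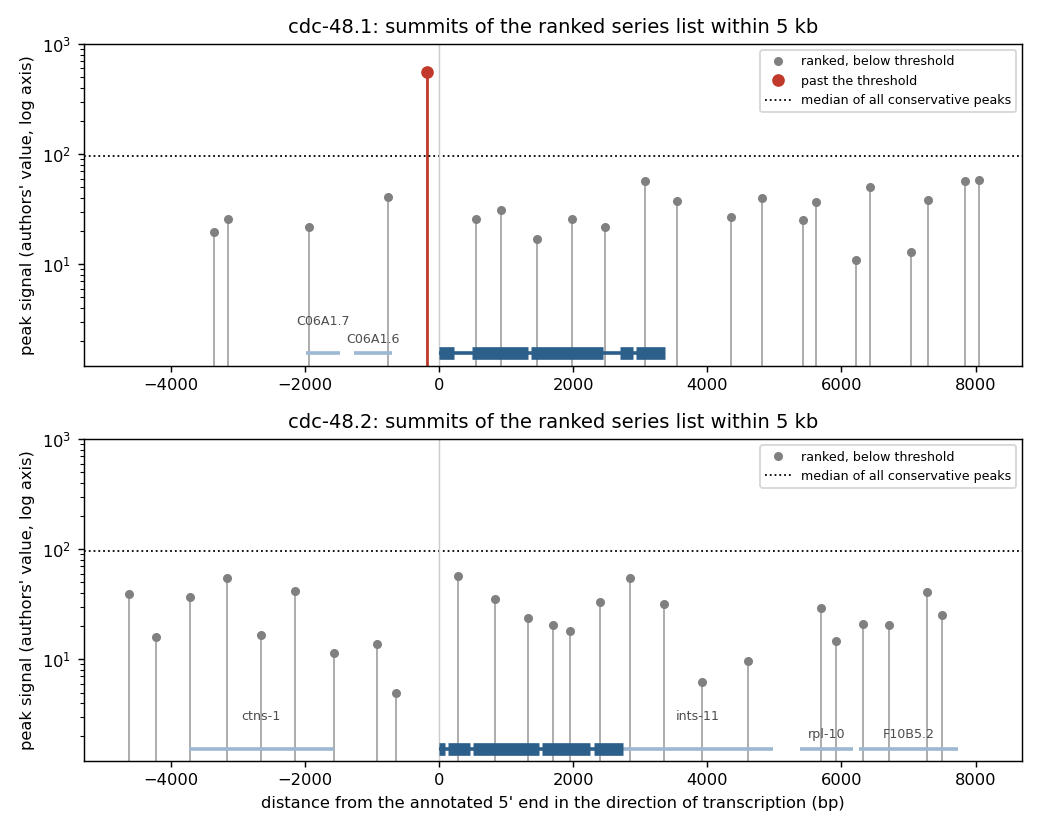
Signal of each summit in the ranked series list (y axis, log scale) by distance from the annotated 5′ end in the direction of transcription (x axis, bp), with exons of the member as dark blocks and protein-coding neighbours as light bars. The only summit past the threshold, at 180 bp upstream of cdc-48.1, reached 557, and all other summits at both genes lay below the median of conservative peaks, 96.7.

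Away from its promoter peak, the cdc-48.1 region looked like that of cdc-48.2. The 21 other ranked summits had a median signal of 27.1 and a highest value of 58.8, and the 25 summits of cdc-48.2 had a median of 23.6 and a highest value of 56.6, with 24.3 as the median of the whole ranked list. The promoter peak was 9.47 times as high as the next summit in its window, 7.83 times in replicate 1 and 7.59 times in replicate 2. At cdc-48.2 the same ratios were 1.03, 1.01 and 1.35. Inside the genes lay 6 ranked summits each, of which those of cdc-48.2 were all exonic and 1 of those of cdc-48.1 was intronic. Coding sequence alone fills 2430 of the 3372 bp of cdc-48.1 and 2433 of the 2735 bp of cdc-48.2, so nothing is read from these counts.

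**Figure D3:**
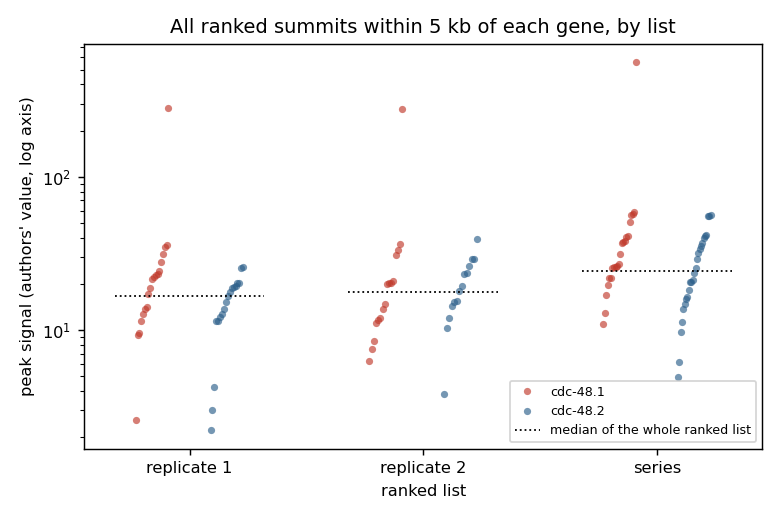
Signal (y axis, log scale) of every ranked summit within 5 kb of cdc-48.1 (red) and cdc-48.2 (blue) in the lists of replicate 1, replicate 2 and the series, ordered by signal within each gene, with the median of the whole list dotted. In each list a single cdc-48.1 summit, at 278.6, 277.2 and 557, stands apart from the others, which reach 58.8 at most in the series list.

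Some weaker summits near cdc-48.1 lay at other genes. The highest of them, 58.8 at 10555348, came closest to the threshold in the conservative list, with a score of 745, and had a score of 436 in the other series list. It fell in R166.10, a snoRNA gene, and 304 bp upstream of mnk-1, which encodes a MAP kinase-interacting kinase, on the far side of the 4991 bp gap behind the 3′ end of cdc-48.1. Replicate 1 had a summit there with a signal of 35.6 and a score of 55. In replicate 2 the closest summit, at 10555548, had 33.5 and a score of 44. The 2 snoRNA genes inside introns of cdc-48.1, C06A1.8 and C06A1.9, had no thresholded summit inside them. The 5′ end of C06A1.9 lies 343 bp downstream of that of cdc-48.1, so the cdc-48.1 peak, 180 bp upstream, is also near this snoRNA gene. A summit at 10560336 in exon 5 had a signal of 56.7 in both series ranked lists, with a score of 88 in the conservative one and 216 in the other. In replicate 2 the summit in that exon, at 10560382, had 36.5 and a score of 367, and in replicate 1 the summits at 10560218 and 10560417 had 18.9 and 2.58.

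The protein-coding neighbours carried no thresholded promoter summit, apart from mnk-1. The mnk-1 signal of 123 belongs to a summit at another 5′ end of that long gene, more than 10 kb from cdc-48.1, with 57.8 and 62.04 in the replicates. C06A1.6 and C06A1.7 upstream of cdc-48.1 had strongest ranked promoter values of 21.7 and 41.1. Next to cdc-48.2, ints-11 and F10B5.2 shared a summit of 29.2. The promoter window of rpl-10, a large ribosomal subunit gene whose 5′ end lies 5385 bp downstream of that of cdc-48.2, held no summit above 9.70 in the series ranked list, and one of 11.4 in replicate 1.

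The genes differ more in their flanks than in what they encode. The cdc-48.1 protein has 809 residues and that of cdc-48.2 has 810, and 720 of 802 aligned residues (89.8%) were identical. Identity along the alignment was 82.4% in the first part of its columns, 93.8% in the middle part and 88.3% in the last part. The 15 gap columns were counted there as not identical. The coding sequences were identical at 78.8% of 2382 aligned bases, and both genes have 5 exons. The first intron of cdc-48.1, at 278 bp, is longer than that of cdc-48.2 at 48 bp and holds C06A1.9. The annotated 5′ UTRs are 17 and 15 bp long.

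Shared sequence between the copies was limited where the peak stands. The genes have 21 words of 24 bp in common, of 3349 in cdc-48.1 and 2712 in cdc-48.2. The peak and the matching stretch upstream of cdc-48.2 share no run over 8 bp. Each of the 178 words of 24 bp in the peak occurs once in the genome, and so does each of the 178 upstream of cdc-48.2. Over the genes with 5 kb to either side, 93.1% of words at cdc-48.1 and 97.3% at cdc-48.2 are single-copy.

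The cdc-48.1 peak was poor in G and C beside other peaks. Its 201 bp around the summit held 33.3% G and C, against a median of 45.3% in promoter peaks, of which 3.77% had as little or less. Windows at the same distance upstream of all genes had a median of 33.8%, so the peak resembled an ordinary upstream region in base composition.

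Of 8 short motifs searched on both strands, the peak held 1. A match to the E-box CANNTG, the site of basic helix-loop-helix factors, lies from 156 to 151 bp upstream of the 5′ end. This motif is common, being found in 52.8% of 19973 upstream windows of the same length and place and in 56.7% of promoter peaks. The nuclear receptor half-site AGGTCA was absent from both printed stretches, and so was its core GGTCA, which it contains. AGGTCA is found in 5.87% of upstream windows and 4.85% of promoter peaks, and GGTCA in 17.8% and 20.1%. The GATA motif AGATAA had a match upstream of cdc-48.2, from 127 to 122 bp from the 5′ end on the opposite strand, and none in the peak (14.3% of windows, 6.20% of promoter peaks). There was no match in either stretch to TGATAA (21.9% of windows, 11.7% of promoter peaks) or to the heat shock element GAANNTTC (12.7% and 9.70%). Neither stretch matched GAGAGA (15.1% and 30.2%) or the T-block TTTTTTT (41.9% and 22.5%).

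The conservative peaks most like that at cdc-48.1 in signal were compared with it, taking the 3 next above and the 3 next below among those past the threshold in both replicates. Of these 7 peaks 3 lay at promoters, those of cdc-48.1, rpl-35 and rpl-15, the last 2 being genes of the large ribosomal subunit. The rpl-35 peak had 295 and 283 in the replicates, and the rpl-15 peak had 333 and 211. Their summits lay 454 and 353 bp upstream of the 5′ ends, and their widths of 199 and 206 bp were close to the 201 bp at cdc-48.1. The other 4, nearest to F40E3.3, ZK899.6, F22H10.2 and Y116A8A.150, had summits from 1183 to 2633 bp from the nearest 5′ end of a protein-coding gene. Distances to 5′ ends of non-coding genes were not taken. Series signals of the 7 peaks ran from 538 to 581.

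A word of 9 bp, AAACACGCT, was the longest found on either strand in all 3 of these promoter peaks, so its presence there is how it was found. It was looked for after the peaks had been seen. In cdc-48.1 it lies from 146 to 138 bp upstream of the 5′ end, 38 bp from the summit. Among the other 739 promoter peaks past the threshold 10 (1.35%) held it, against 38 of 27561 ranked promoter peaks below the threshold (0.138%) and 55 of 19973 upstream windows (0.275%). These sets were not matched in base composition, and promoter peaks had a median of 45.3% G and C against 33.8% in upstream windows. Besides the 3 peaks that gave the word, which were taken for their high signal, 13 conservative peaks held it, of which 7 were among the 406 strongest peaks and 0 among the 406 weakest.

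The 6 strongest peaks with the word are shown with 16 bp to either side, in the direction of the word and with the word in capitals, to let the flanks be compared. They lie at rpl-3 (signal 937), rpl-35, cdc-48.1, rpl-15, cox-5A (400.1), a cytochrome c oxidase subunit gene, and Y39B6A.43 (317).
rpl-3, chrIII:3867560-3867600, minus strand: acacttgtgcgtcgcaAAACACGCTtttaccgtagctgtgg
rpl-35, chrIII:7854656-7854696, minus strand: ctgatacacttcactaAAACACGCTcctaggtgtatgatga
cdc-48.1, chrII:10563529-10563569, minus strand: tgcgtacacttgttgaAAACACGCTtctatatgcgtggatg
rpl-15, chrIV:654903-654943, plus strand: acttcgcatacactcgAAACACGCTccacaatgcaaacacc
cox-5A, chrIII:12905147-12905187, plus strand: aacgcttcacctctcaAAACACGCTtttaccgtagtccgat
Y39B6A.43, chrV:18967805-18967845, minus strand: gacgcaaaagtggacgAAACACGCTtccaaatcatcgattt
The rpl-3 and cox-5A windows share a run of 21 bp, and cdc-48.1 shares 11 bp with each of them. Each run includes the 9 bp of the word by which the windows were chosen, so that part was fixed in advance. Over all 16 peaks the centre of the word lay a median of 31 bp from the summit and 89 bp at most. The word was sought only in the 201 bp centred on each summit, which bounds this distance. The 16 peaks include the 3 that gave the word, so nothing is read from these distances.

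Genes listed for the CDC-48 pathway had few promoter peaks, at a share near that of all genes. The 28 genes were mostly those of adaptors, ubiquitin-handling partners and degradation at the endoplasmic reticulum, with cdc-48.3 and nsf-1 also listed. Of the 28, 2 (7.14%) had a conservative summit in the promoter window, beside 4.42% of all genes. They were ubql-1, the ubiquilin gene whose product escorts tagged proteins to the proteasome, and sqst-1, the homologue of the mammalian autophagy receptor p62. The ubql-1 peak had a signal of 157 in the series and of 93.5 and 67.4 in the replicates, with a summit 558 bp upstream. The sqst-1 peak had 75.1 with a summit 135 bp downstream of a 5′ end, and passed in neither replicate alone. In the other series list, and in replicate 1, sqst-1 was replaced by ubxn-2, the gene of a UBX-domain adaptor, with 52.2 in replicate 1.

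Promoter signals of the adaptor genes ranged from no ranked summit to a value near the threshold. The strongest ranked promoter signal of ufd-1 was 13.8, and npl-4.1 and npl-4.2 had no ranked summit in the window. Among the UBX-domain genes, ubxn-2 had 71.8, which is at the 92.7 percentile of genes with a ranked promoter summit. Of the others, ubxn-3 had 49.5, ubxn-6 had 26.9 and ubxn-4 had 12.4, and ubxn-1 and ubxn-5 had no ranked summit in the window. The related ATPase gene cdc-48.3 had 40.2, png-1, a peptide N-glycanase gene, had 69.5, and the Derlin gene cup-2 had 61.0. In all, 20 of the 28 had some ranked summit in the window, beside 14797 of all 19985 protein-coding genes. Their median was 39.9 against 33.6 over all genes with one, and 12 of these 20 lay above the latter.

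**Figure D4:**
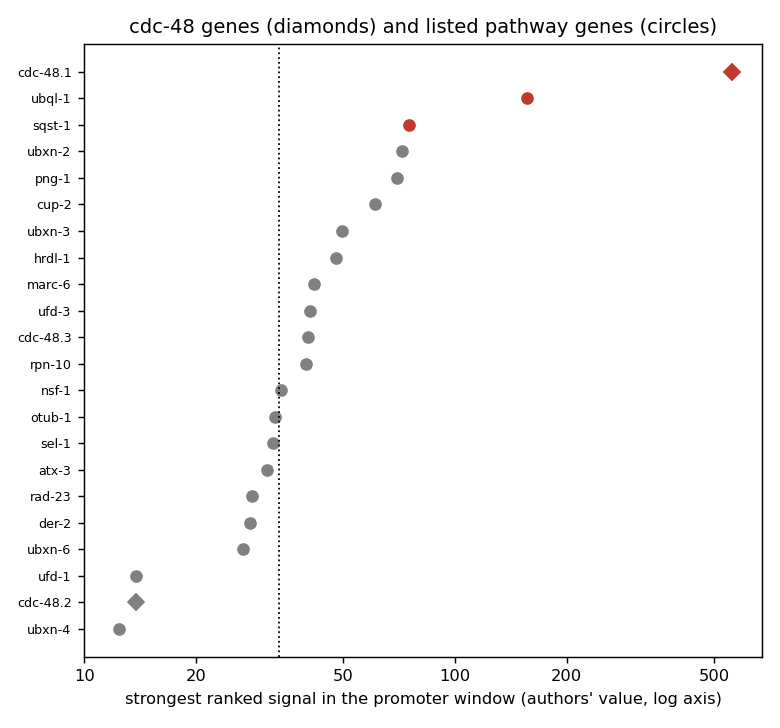
Strongest ranked signal in the promoter window (x axis, log scale) for cdc-48.1 and cdc-48.2 (diamonds) and the 20 listed pathway genes with a ranked summit there (circles), with promoters past the threshold in red and the median over all genes dotted. The cdc-48.1 value of 557 lies above that of ubql-1, 157, and cdc-48.2 lies near the bottom at 13.8. The strongest cdc-48.2 summit, 56.6 at 282 bp downstream of the 5′ end, falls outside the window and is not shown.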

How the data were processed

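ChIP-seq peaks of 2 replicates of 1 group were analysed from 8 headerless lists on build ce11. The deposited descriptions state that a replicate's lists derive from its own alignments and series lists from both. Which aligner and peak caller were run is not given in the sources used here. For each peak the authors deposited a signal with no stated unit, a score (scaled irreproducible discovery rate, at least 830 in thresholded lists, where it stands for a rate of 0.01) and, in ranked lists, the global rate as −log10. Ranks, percentiles and folds over other peaks were taken within a list; the mean, SD and ratios over replicate lists assume that their scales are alike. Summits are 1-based. Genes came from Ensembl release 115 and sequence from RefSeq WBcel235, the same assembly as ce11. Proteins were translated from the annotated coding sequence and aligned globally (BLOSUM62). The authors' intervals were not changed and no test was made, since there is 1 group and the genes were chosen with earlier results of these data known, as were the lists of motifs and pathway genes. Named genes are the members, protein-coding neighbours within 5 kb, bound pathway genes and the peaks nearest in signal; other genes, such as unbound pathway genes and those at the 9 bp word, were named after their values were seen. The steps that assign promoters and find motifs were tested on simulated data. Python 3.11.15, numpy 2.4.6, pandas 2.3.3, biopython 1.88 and matplotlib 3.10.9 were used.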

Additional observations from a re-analysis of the deposited data

How the results depend on the processing

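Of 39 alternative values for 9 results, 25 stayed within the replicate spread or within 1.5 times the reported count. Some of these outcomes were fixed in advance, so the tally does not measure robustness. For example, both series lists hold the same signals at these peaks, and no summit within 5 kb of cdc-48.2 leaves none within 2 kb. The strongest cdc-48.1 signal, 557 in both series lists, was 277.2 to 278.6 in lists of a single replicate, whose signals are on their own scale, and its percentile among thresholded peaks went from 99.02 to 97.7 and 98.1. The strongest cdc-48.2 signal, 56.6, was 25.6 to 39.3 in single replicates (percentile 95.0 in the series, 84.0 to 96.6 in single replicates). Within 10 kb, cdc-48.1 held 3 thresholded summits, the added ones inside mnk-1, and cdc-48.2 held 1, inside ulp-4. The share of bound genes was 2.87% with the 814 strongest peaks, and 2.11% to 3.1% in single replicates. Bound pathway genes numbered 0 with a promoter window of 500 bp upstream to 100 bp downstream, 1 with the 814 strongest peaks, and 1 to 2 in single replicates. The cause was not tested. No paired analysis was possible because there is 1 group. Peak lists give no depth, so how weak a site at cdc-48.2 could have been detected cannot be given.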
